A study of Mus musculus with 12 samples.

Results

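Sorted stem cells of the mouse dentate gyrus were compared with the astrocytes and the progenitors sorted beside them, and 256 genes were found whose 4 stem cell values all lay on one side of the 8 other libraries. They make up 1.59% of the 16119 genes tested, out of 50600 gene identifiers counted. In 188 of them (1.17% of the genes tested) the stem cell values lay above all others, and in 68 (0.422%) below all others. These genes were picked by their measured values, as counts scaled to library size with TMM factors (counts per 1e+06, CPM), so their number and their levels are a description and not a test.

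The cells came from Nestin-GFP mice of 6 to 9 weeks, whose green fluorescent protein (GFP) is driven by regulatory sequences of the nestin gene. Live cells without CD31, CD45, O1 or O4, which mark endothelial, blood and oligodendrocyte lineage cells, were split by GFP and by GLAST, the glutamate transporter encoded by Slc1a3. Stem cells carried GFP and GLAST, progenitors GFP alone and astrocytes GLAST alone. There were 4 libraries of each, made from 50 cells per library, and the cells of a group are those of a gate, which can hold more than one cell type. Amplified copies of a molecule were counted separately, so counting limits cover counting error only, and p-values measure the spread between these libraries.

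Neural stem cells of the dentate gyrus are radial glia-like cells that persist in the adult hippocampus and give rise to granule neurons through dividing progenitors. They share much of their expression with astrocytes, including the glutamate transporter used in the sort, which is why the reporter is needed to tell them apart. Radial glia-like cells are known for lipid synthesis, glycolytic metabolism and a mostly quiescent state, and lose these features as they commit to a neuronal fate. In pooled cells, fewer cells of a type and less RNA per cell cannot be told apart.

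Depth and content differed between the groups. Totals of counts on genes were 5031166 to 12535028 per library, and genes with at least 10 counts numbered 9430 to 11655 in astrocytes, 13368 to 14175 in stem cells and 16389 to 17015 in progenitors. Stem cells therefore stood between the other groups in the number of genes seen. The genes described here lie outside both groups by the rule that picked them, and the part of depth in this was not tested. Of the radial glia-like stem cell markers, 27 of 30 were tested, and their summed level was 10224 to 14725 CPM in stem cells, 6068 to 9950 CPM in astrocytes and 4271 to 5911 CPM in progenitors. A large part of each sum was Slc1a3, the gene of the sort antigen, and without it the sums were 3435 to 5507 CPM, 2199 to 3804 CPM and 2093 to 2551 CPM, so that stem cells and astrocytes overlapped. Nes, the gene whose regulatory sequences drive the reporter, was among those not tested, with 0 to 4 counts in each stem cell library, none in astrocytes and 1 to 291 counts in progenitors. Ptprc, which encodes the CD45 antigen, had no count in any library, and Pecam1, which encodes CD31, had 74 counts in stem cell library 1 and at most 10 in any other.

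Tested against the mean of astrocytes and progenitors with edgeR's quasi-likelihood test, 60 genes were higher in stem cells and 15 were lower at an adjusted p under 0.05. These are 0.372% and 0.0931% of the genes tested (0.465% together), and 1038 and 885 genes had an unadjusted p under 0.05 in the same directions. The lists of genes with separated values and of genes past the test overlapped in 25 genes above and in 3 below. Since both lists rest on one contrast, nothing is read from that overlap. The calls depended on the model and on single libraries. Treating astrocytes and progenitors as 1 group left no gene past the threshold, with 1308 genes at an unadjusted p under 0.05, and DESeq2 called 398 genes higher and 517 lower. With a library left out, between 6 genes (without stem cell library 1) and 195 genes (without astrocyte library d) were called higher. All 12 such fits called Aldoc, Apoe, Prdx6, Slc1a2, Slc1a3 and Tspan7 higher, and Egr1 and Gjc3 lower.

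**Figure D1:**
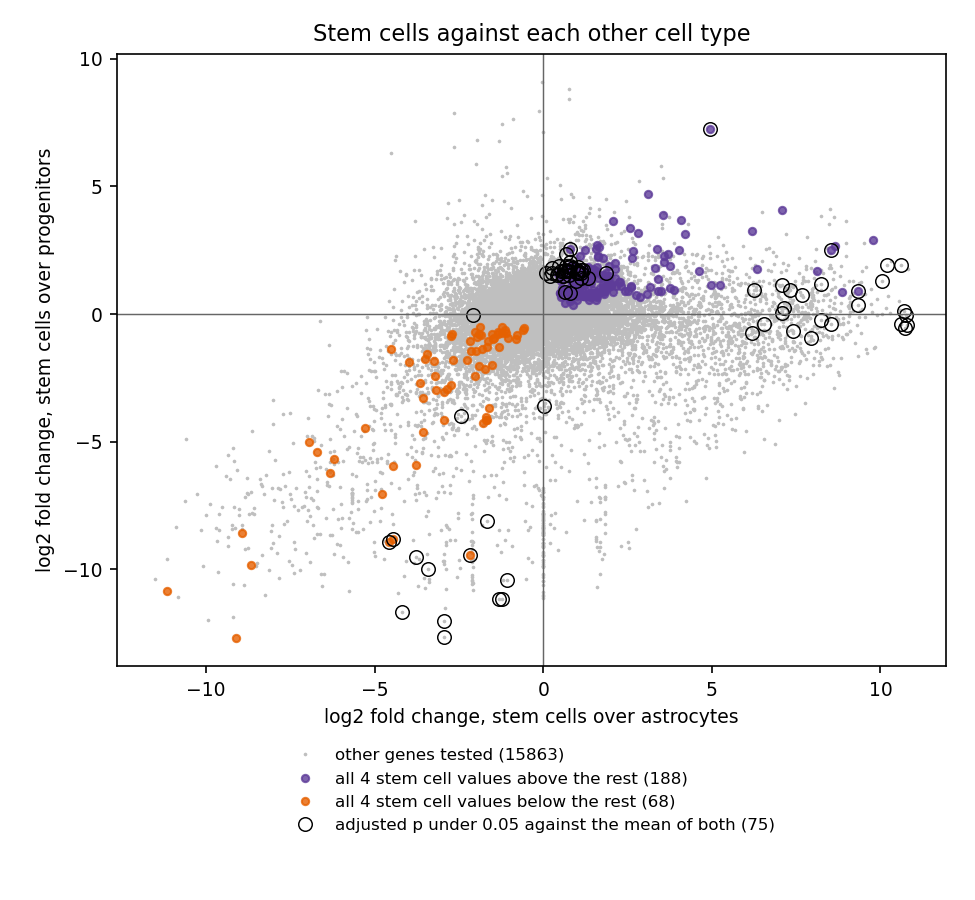
Log2 fold changes of stem cells over astrocytes (x axis) and over progenitors (y axis), 1 point per gene tested. The 188 genes with separated values above (purple) lie to the upper right and the 68 below (orange) to the lower left, while many of the 75 genes past the test (black rings) lie near 1 axis, and fitted folds of genes at the count floor are far out along the axes.

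Which of the other cell types a difference came from was read from the separate contrasts of the same fit. Stem cells were higher than astrocytes in 201 genes (1.25% of those tested) and lower in 145 (0.9%), 2.15% together, and higher than progenitors in 136 (0.844%) and lower in 245 (1.52%), 2.36% together. Of the 60 genes called higher than the mean, 32 passed against astrocytes, 36 against progenitors and 8 against both. In 21 of the 60, beside 1259 of the 16119 genes tested, all astrocyte libraries had at most 3 counts, which is the floor used here. An example is Tfam, a mitochondrial transcription factor, at 42 CPM in stem cells, 32.4 CPM in progenitors and 0.0502 CPM in astrocytes. Against progenitors its adjusted p was 1 by edgeR. Of the 15 genes called lower, 14 passed against progenitors and 1 against astrocytes. In 9 of the 15 the stem cells were at the floor, beside 467 of the 16119 genes tested. Egr1, an immediate early transcription factor, averaged 760 CPM in progenitors, 1.15 CPM in astrocytes and 0.553 CPM in stem cells.

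The 8 genes that passed against each of the other cell types on their own were Aqp4, Ckb, F3, Gpm6a, Prdx6, Prnp, Tspan7 and Ugp2, and every one of them also had separated values. Lower than each were Crtac1, Faah, Igsf9b, Lurap1l and Ttc9b, none of which passed against the mean, and Crtac1, Igsf9b and Ttc9b had separated values. All 5 were at the floor in every stem cell library, and they were named after their values were seen. Passing and separation come from the same values, so nothing is read from their overlap in either direction.

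Enzymes of carbohydrate and energy metabolism were among the called genes with separated values. One is Ugp2, which makes the UDP-glucose used for glycogen. Its values were 88.5, 90.7, 40 and 101 CPM in astrocyte libraries a to d, 134, 74.2, 89.6 and 81.2 CPM in progenitor libraries a to d and 277, 335, 330 and 222 CPM in stem cell libraries 1 to 4. The lowest stem cell library was well above the highest of the others, and the level was 3.35-fold the mean of both (log2 fold change 1.74, standard error 0.30, adjusted p = 0.022 by edgeR's quasi-likelihood test). The call was lost in 7 of the 12 fits without a library, namely without any stem cell library or progenitor library b, c or d. Aldoc, the aldolase of brain glia, had 6638, 5113, 3813 and 7769 CPM in astrocytes, 3252, 2187, 2565 and 2794 CPM in progenitors and 10564, 8212, 12172 and 9445 CPM in stem cells. The groups did not overlap, progenitors were lowest, and stem cells were higher by 1.35 on the log2 scale (standard error 0.17, adjusted p = 0.0045 by edgeR).

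Adhfe1 encodes a mitochondrial enzyme that oxidizes hydroxybutyrate. It was at 150, 191, 182 and 229 CPM in astrocytes, 49.3, 65.2, 60.8 and 47.3 CPM in progenitors and 376, 305, 366 and 263 CPM in stem cells. Most of its difference was against progenitors (log2 fold change 2.56, adjusted p = 0.00096 by the edgeR test), whereas that against astrocytes was 0.80 with an adjusted p of 0.15. Without stem cell library 1 or 3 it was no longer called against the mean. Car2, a carbonic anhydrase that interconverts carbon dioxide and bicarbonate, ranged from 312 to 785 CPM in astrocytes, from 220 to 375 CPM in progenitors and from 827 to 1301 CPM in stem cells. Its log2 fold change against the mean was 1.43 (standard error 0.25, adjusted p = 0.024 by edgeR), called in 5 of 12 fits without a library. Ckb, the brain creatine kinase that buffers ATP, was at 3410 to 4917 CPM in astrocytes, 3496 to 4318 CPM in progenitors and 5199 to 8273 CPM in stem cells. The other groups shared 1 range in Ckb, and its log2 fold changes were nearly equal, 0.80 over astrocytes and 0.83 over progenitors, with adjusted p-values of 0.022 and 0.018 by edgeR. Against the mean, Ckb was not called without progenitor library b or stem cell library 1, 2 or 3.

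The glycolysis list held 21 tested genes. Aldoc was the only one called higher against the mean, none was lower, and 3 had separated values (Aldoc, Aldoa and Eno1). In 19 of the 21 the log2 fold change was above 0, and the median was 0.55, beside -0.05 for all genes tested. Among all genes tested, fewer lay above 0 than below, 0.372% were called higher against the mean and 1.17% had separated values above. The same shares stand beside the counts of the lists that follow. Summed levels were 18181 to 27569 CPM in stem cells, 10234 to 16830 CPM in astrocytes and 8380 to 10658 CPM in progenitors. Without the 3 separated genes they were 5496 to 9618 CPM, 3950 to 6409 CPM and 4046 to 4905 CPM, and stem cells overlapped with astrocytes. Eno1, the enolase of most tissues, was at 3247, 2460, 4312 and 2246 CPM in stem cells against a highest value of 2129 CPM elsewhere (adjusted p = 0.058 by edgeR). Aldoa, the aldolase of muscle, had stem cell values of 1063 to 1542 CPM and a highest other value of 1060 CPM, close to the edge of the rule (adjusted p = 0.089).

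Of 30 tested genes of fatty acid metabolism, Acsbg1 and Acsl3 were called higher, none was called lower, and Acsl6, Dbi and Fabp5 had separated values without passing the test. The median log2 fold change was 0.88, and 24 of the 30 were above 0. Acsbg1, Acsl3 and Acsl6 encode acyl-CoA synthetases, which activate fatty acids. Acsl6 had 120, 876, 362 and 705 CPM in astrocytes, 433, 413, 351 and 312 CPM in progenitors and 1168, 1317, 1171 and 1053 CPM in stem cells, with a log2 fold change of 1.42 (standard error 0.35, adjusted p = 0.11 by edgeR). Its stem cell values were close together, and its astrocyte values were spread widely. Dbi, which encodes the acyl-CoA binding protein, ranged from 943 to 1648 CPM in stem cells and from 493 to 773 CPM in all the others (adjusted p = 0.066). Fabp5, a fatty acid binding protein, ranged from 473 to 662 CPM in stem cells and reached 433 CPM elsewhere (adjusted p = 0.11). Hacd2, a dehydratase in the elongation of very long fatty acids, was called. It was at 354, 242, 334 and 345 CPM in stem cells, 141 to 181 CPM in astrocytes and 82.2 to 123 CPM in progenitors, with a log2 fold change of 1.31 (standard error 0.23, adjusted p = 0.026 by edgeR). That call held in 4 of the 12 fits without a library, those without an astrocyte library.

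Of 26 tested genes of cholesterol synthesis and transport, 25 had a log2 fold change above 0, with a median of 0.83. Apoe and Msmo1 were called higher, none was called lower, and Apoe, Hmgcs1, Sqle and Dhcr7 had separated values. Apoe, the main lipid carrier made by glia, had 29492, 32043, 32570 and 35831 CPM in astrocytes, 17435, 16127, 14554 and 11440 CPM in progenitors and 54585, 40530, 44921 and 36512 CPM in stem cells. The lowest stem cell library was just above the highest astrocyte library, and the log2 fold change was 1.01 against the mean (standard error 0.11, adjusted p = 0.0029 by edgeR), 1.57 against progenitors and 0.44 against astrocytes (adjusted p = 0.10). Hmgcs1, which makes HMG-CoA, was at 276, 462, 361 and 288 CPM in stem cells, 82.1 to 175 CPM in astrocytes and 102 to 219 CPM in progenitors (log2 fold change 1.31, adjusted p = 0.065 by edgeR). Sqle, which oxidizes squalene, ranged from 260 to 416 CPM in stem cells and from 11 to 240 CPM elsewhere (adjusted p = 0.19). Dhcr7, the last reductase of the pathway, ranged from 89.5 to 127 CPM in stem cells and from 17.5 to 80.9 CPM elsewhere (adjusted p = 0.29). In both genes the stem cell values lay above all others without a call.

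**Figure D2:**
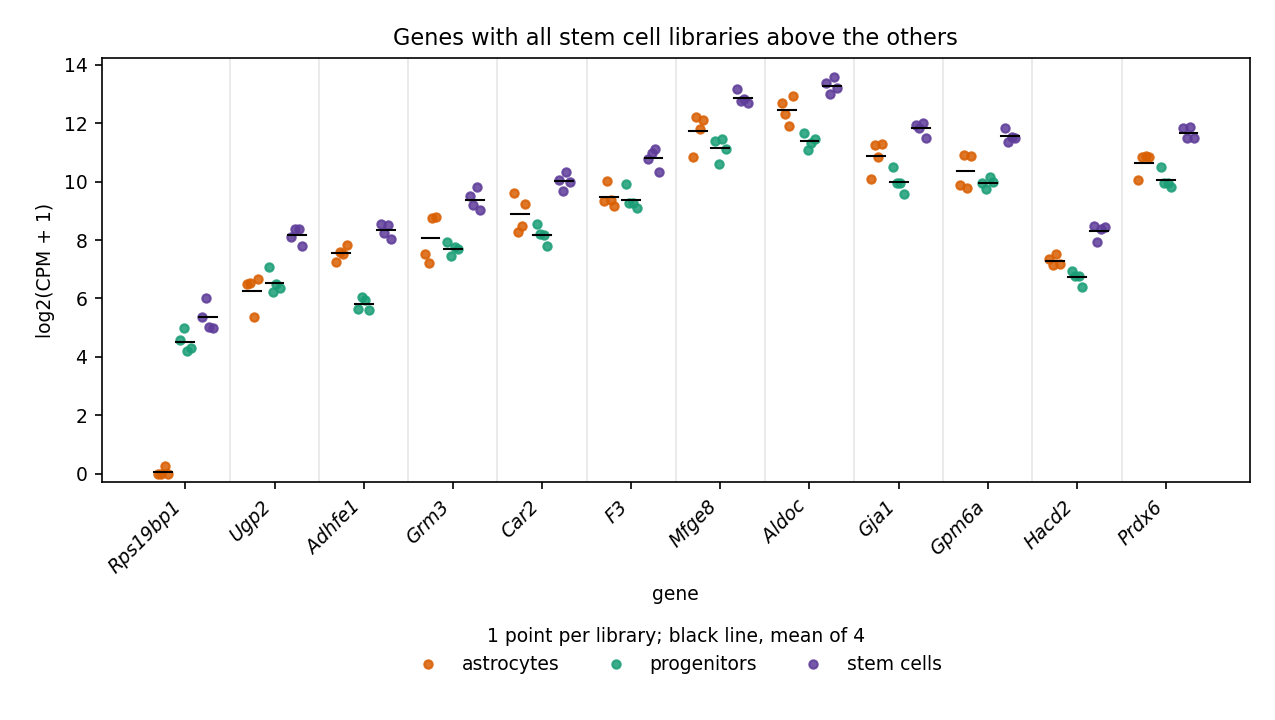
Levels of the 12 named genes with separated values above, as log2(CPM + 1) on the y axis, 1 point per library and a line at the mean of 4. In each gene the 4 purple stem cell points lie over all orange astrocyte and green progenitor points, and Rps19bp1 is the gene whose astrocyte libraries are at the floor.

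Genes of membrane transport and cell contact that are known from astrocytes were among the highest. The astrocyte list was tested in full (24 genes), with 8 called higher than the mean, none called lower, 7 with separated values above and a median log2 fold change of 0.98. Against progenitors 13 of the 24 were higher and the median was 1.56, whereas against astrocytes 1 was higher, 1 was lower and the median was 0.36. The lower one was Grin2c, at 320 to 622 CPM in astrocytes, 81.8 to 135 CPM in stem cells and 54.9 to 97.6 CPM in progenitors. Its log2 fold change against astrocytes was -2.02 (adjusted p = 0.011 by edgeR). Summed levels were 71495 to 89120 CPM in stem cells, 44040 to 68222 CPM in astrocytes and 18906 to 31514 CPM in progenitors. Without the 7 separated genes the sums were 50879 to 65241 CPM, 33816 to 52356 CPM and 12111 to 22550 CPM, so that stem cells and astrocytes overlapped. The part of astrocytes in the results was not tested.

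Gja1, the gap junction protein connexin 43, had 1082, 2422, 1847 and 2514 CPM in astrocytes, 1435, 1003, 988 and 761 CPM in progenitors and 3902, 3652, 4161 and 2909 CPM in stem cells. Astrocytes and progenitors overlapped in Gja1 while stem cells stood apart (log2 fold change 1.35, standard error 0.21, adjusted p = 0.014 by edgeR). Gjb6, its partner connexin 30, lay at the edge of the rule, with 783 CPM in stem cell library 4 and 781 CPM in astrocyte library b (log2 fold change 1.20, adjusted p = 0.014 by edgeR). Both connexins, and Atp1b2 too, were not called without progenitor library b or stem cell library 1, 2 or 3. Aqp4, the water channel of astrocyte endfeet, was at 1085 to 1502 CPM in stem cells, 414 to 813 CPM in astrocytes and 330 to 686 CPM in progenitors. The stem cell level of Aqp4 was 1.13 above astrocytes and 1.41 above progenitors on the log2 scale (adjusted p = 0.048 and 0.019 by edgeR), and the call against the mean held in 5 of 12 fits. Atp1b2, a glial subunit of the sodium pump, ranged from 1429 to 1819 CPM in stem cells and reached 1333 CPM in astrocytes and 736 CPM in progenitors (log2 fold change 1.04, adjusted p = 0.014 by edgeR).

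Slc1a3, the gene of the GLAST antigen, had 8911, 6864, 9257 and 6818 CPM in stem cells, 3905, 4708, 4116 and 6188 CPM in astrocytes and 3194, 2195, 3388 and 2359 CPM in progenitors. Stem cells and astrocytes were both sorted as GLAST positive, and progenitors as negative, so this gene was part of the sort. The progenitor libraries were lowest but far from 0, and the log2 fold change against astrocytes was 0.75 (adjusted p = 0.054 by edgeR). Slc1a2, the other main glial glutamate transporter, was called against the mean (log2 fold change 0.84, adjusted p = 0.0045) with stem cells at 5348 to 6342 CPM overlapping astrocytes at 5366 to 6128 CPM. Grm3, a metabotropic glutamate receptor of glia, did separate, with 725, 587, 907 and 521 CPM in stem cells, 147 to 439 CPM in astrocytes and 176 to 242 CPM in progenitors (log2 fold change 1.45, standard error 0.29, adjusted p = 0.048 by edgeR). Its call held only without an astrocyte library, in 4 of 12 fits. In the list of glutamate and GABA handling genes, 2 of 14 were called higher (Slc1a2 and Slc1a3) and 9 had a log2 fold change above 0.

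Tspan7, a tetraspanin of the cell surface, had 6960, 4289, 5736 and 4535 CPM in stem cells, 2954, 2870, 3151 and 3790 CPM in astrocytes and 1765, 1409, 1853 and 1666 CPM in progenitors. Its values fell into 3 ranges without overlap, and its call had the lowest adjusted p of those here together with Apoe and Gjc3 (log2 fold change 1.22, standard error 0.14, adjusted p = 0.0029 by edgeR). Gpm6a, a membrane glycoprotein of neural cells, was at 2616 to 3704 CPM in stem cells, 879 to 1911 CPM in astrocytes and 856 to 1154 CPM in progenitors (log2 fold change 1.35, adjusted p = 0.014), called in 9 of 12 fits. Cd81, another tetraspanin, ranged from 2040 to 2550 CPM in stem cells and reached 1645 CPM elsewhere (log2 fold change 0.76, adjusted p = 0.047 by edgeR), called in 4 of 12 fits. Prnp, the cellular prion protein, was at 977 to 1550 CPM in stem cells and at 437 to 755 CPM in all the others (log2 fold change 1.13, adjusted p = 0.014), called in 7 of 12 fits. Prn, a gene model that shares 96.94% of its exonic bases with other genes, lay above as well and cannot be told apart from Prnp.

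Secreted and signalling proteins form a further set. F3, which encodes tissue factor, the cell surface starter of blood clotting that astrocytes carry, had 646, 1052, 663 and 578 CPM in astrocytes, 960, 610, 620 and 542 CPM in progenitors and 1772, 2026, 2203 and 1301 CPM in stem cells. The other groups shared 1 range, the lowest stem cell library was 1.24-fold above its top, and the fitted level was 2.58-fold the mean of both (log2 fold change 1.37, standard error 0.21, adjusted p = 0.014 by edgeR), called except without progenitor library b or stem cell library 1, 2 or 3. Mfge8, a secreted protein that bridges dying cells to phagocytes, had 9197, 6949, 7339 and 6613 CPM in stem cells, 1845 to 4767 CPM in astrocytes and 1563 to 2827 CPM in progenitors (log2 fold change 1.37, standard error 0.21, adjusted p = 0.014). Mertk, a receptor through which phagocytes take up such cells, was above all others without passing the test, at 361 to 732 CPM in stem cells and at most 331 CPM elsewhere (adjusted p = 0.07). Mfge8 was called except without stem cell library 1, 2 or 3.

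In growth factor pathways, no receptor passed the test and several were separated. Egfr, the receptor of epidermal growth factor, was at 129, 160, 127 and 115 CPM in stem cells, 102, 70.9, 64.3 and 29.5 CPM in astrocytes and 42.8, 67, 34.9 and 23 CPM in progenitors (log2 fold change 1.33, standard error 0.40, adjusted p = 0.16 by edgeR). Hbegf, one of its ligands, was at 96.4 to 139 CPM in stem cells and at 38 to 95.6 CPM elsewhere (adjusted p = 0.17). Of the 20 tested genes of the EGFR family and ERK feedback, none was called in either direction against the mean, 11 had a log2 fold change above 0 and the median was 0.09. Sdc4, a heparan sulfate proteoglycan that helps FGF bind its receptors, was at 241 to 297 CPM in stem cells, 94.4 to 182 CPM in astrocytes and 70.8 to 118 CPM in progenitors (log2 fold change 1.17, adjusted p = 0.068). The 10 tested FGF receptors and ligands had a median log2 fold change of 0.84, with 9 above 0 and none called. Their median was 0.36 against astrocytes and 1.15 against progenitors. Summed levels were 1006 to 1184 CPM in stem cells, inside the astrocyte range of 632 to 1276 CPM, and 463 to 596 CPM in progenitors. Acvr1, a BMP receptor, was at 26.3, 37.2, 23 and 54.4 CPM in stem cells, at most 7.18 CPM in astrocytes and at most 18.2 CPM in progenitors (log2 fold change 2.80, standard error 0.94, adjusted p = 0.20). Fzd6, a Wnt receptor, was at 5.63 to 12.8 CPM in stem cells, and 3 of 4 astrocyte libraries had no count for it (adjusted p = 0.25). The lists of BMP (17 tested), Wnt (28) and Notch (23) genes had no call in either direction against the mean, and medians of 0.09, 0.07 and -0.10.

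Of the 27 tested radial glia-like markers, Slc1a3 was called higher, none was called lower, 23 had a log2 fold change above 0, and Hopx, Prom1 and Slc1a3 had separated values. The median was 0.50, and also 0.50 with the 3 genes that had a group at the floor set to their bound. Against astrocytes the median was 0.37 (0.20 with those genes at their bound), and 0 of the 27 passed in either direction. Against progenitors the median was 0.76, with 3 genes higher and 1 lower. Hopx, a homeodomain protein found in quiescent stem cells, had 265, 155, 209 and 413 CPM in astrocytes, 172, 144, 286 and 175 CPM in progenitors and 591, 497, 499 and 603 CPM in stem cells. Its stem cell values were close together and the adjusted p was 0.056 by edgeR (log2 fold change 1.28, standard error 0.27). Hopxos, on the opposite strand, was separated too (189 to 254 CPM in stem cells, at most 153 CPM elsewhere), and since counting ignored strand, the 27.18% of Hopx exonic bases that lie under other genes are uncertain. Prom1, the CD133 antigen used to sort stem cells, was at 49.2 to 91.8 CPM in stem cells, at most 42.2 CPM in astrocytes and at most 11.2 CPM in progenitors (log2 fold change 2.14, standard error 0.85, adjusted p = 0.29). Astrocyte libraries a and d had 0.219 and 2.87 CPM of Prom1.

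Some separated genes encode proteins that handle peroxides and electrophiles, a grouping with no list behind it, made after the values were seen. Prdx6, a peroxiredoxin that repairs oxidized lipids, had 1054, 1820, 1895 and 1825 CPM in astrocytes, 1457, 982, 994 and 906 CPM in progenitors and 3672, 2914, 3729 and 2882 CPM in stem cells. Its call held in all 12 fits without a library (log2 fold change 1.30, standard error 0.18, adjusted p = 0.008 by edgeR). Prdx1, a cytosolic peroxiredoxin, was at 775 to 1076 CPM in stem cells and 203 to 612 CPM elsewhere (log2 fold change 1.19, adjusted p = 0.054). Gstm5, a glutathione transferase, was at 2288 to 3524 CPM in stem cells and at most 2190 CPM elsewhere (log2 fold change 1.03, adjusted p = 0.014), called except without progenitor library b or stem cell library 1 or 3. It belongs to a family of near copies, of which Gstm1 was called without being separated (log2 fold change 1.16, adjusted p = 0.018), and Gstm2-ps1, a processed pseudogene of that family, lay above as well, so reads could be split between them. Mgst1, a membrane-bound glutathione transferase, was at 70.4 to 168 CPM in stem cells and 15.3 to 57.5 CPM elsewhere (adjusted p = 0.098). Mt2, a metallothionein, was at 386 to 839 CPM in stem cells and at most 322 CPM elsewhere (adjusted p = 0.056), and 73.47% of its exonic bases lie under another gene.

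Of 76 tested nuclear genes of oxidative phosphorylation, 63 had a log2 fold change above 0 and the median was 0.36. It was 0.13 against astrocytes and 0.57 against progenitors. Summed levels were 16231 to 17543 CPM in stem cells, inside the astrocyte range of 13545 to 28104 CPM, and 10803 to 12343 CPM in progenitors. No gene of this list was called in either direction against the mean, and Ndufb10 and Ndufv2 had separated values. Both encode subunits of complex I. Ndufb10 was at 212 to 252 CPM in stem cells and 69.4 to 150 CPM elsewhere (adjusted p = 0.13 by edgeR). Slc25a5, which exchanges ADP and ATP across the inner membrane, was at 471 to 585 CPM in stem cells and at most 345 CPM elsewhere (adjusted p = 0.089). Of lysosomal proteins, which had no list and were chosen after their values were seen, the protease gene Ctsd was at 552 to 978 CPM in stem cells and at most 551 CPM elsewhere, and Lamp2 at 189 to 336 CPM and at most 176 CPM.

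Where some libraries had few counts, some differences were wide and uncertain. Rps19bp1, which binds a protein of the small ribosomal subunit, had 391, 490, 249 and 165 counts in stem cells, 330, 370, 191 and 215 in progenitors and 1 count in all astrocyte libraries together. Its lowest stem cell value, 30.9 CPM, was barely above its highest progenitor value, 30.4 CPM. Stem cells were at least 66.1-fold above astrocytes, computed with 3 counts in each astrocyte library, and the difference from progenitors was a log2 fold change of 0.90 with an adjusted p of 0.96 by edgeR. Its call thus went with the difference from astrocytes. Astrocytes were at the floor in 11 of the 188 genes above, beside 1259 of the 16119 genes tested. Tekt5, a filament protein of cilia and flagella, was at 7.64 to 19.5 CPM in stem cells, 0 in astrocytes and 0 to 5.8 CPM in progenitors (at least 20.8-fold above astrocytes). Apoc1, an apolipoprotein gene beside Apoe, was at 7.26 to 18.3 CPM in stem cells, 0 to 4.51 CPM in astrocytes and 0 to 1.04 CPM in progenitors (adjusted p = 0.19). Pcdhb14, a clustered protocadherin, was at 66.2, 60, 68.1 and 67.2 CPM in stem cells, which is nearly constant, and at most 20.6 CPM elsewhere (adjusted p = 0.24).

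Genes below all others were fewer than those above. Of the 68, Gjc3, Hecw1 and Pcsk2 passed the test (4.41%, beside 0.0931% of all genes tested called lower). The rule and the test rest on one contrast, so nothing is read from that share. All 3 were high in progenitors alone. Gjc3, a connexin of the oligodendrocyte lineage, had 4, 1, 2 and 1 counts in stem cells, 3 to 10 in astrocytes and 1609 to 2886 in progenitors (adjusted p = 0.0029 by edgeR against the mean, 0.086 against astrocytes). Hecw1, a ubiquitin ligase, was at least 166-fold lower in stem cells than in progenitors, and Pcsk2, a convertase of neuropeptide precursors, at least 48.2-fold lower. Both had at most 7.03 CPM in astrocytes and at most 0.374 CPM in stem cells, and their calls held only without an astrocyte library.

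The other genes below were picked for display by their unadjusted p, since none passed. Cacna1e, a voltage-gated calcium channel, had 3.72, 19.8, 4.62 and 29.1 CPM in astrocytes, 44.8, 63.7, 30.5 and 115 CPM in progenitors and 0.724, 0.92, 0.125 and 2.43 CPM in stem cells (adjusted p = 0.062 by edgeR). Snhg11, a long noncoding RNA of neurons, was at 0 to 2 CPM in stem cells, 6.35 to 31.2 CPM in astrocytes and 21.6 to 103 CPM in progenitors (adjusted p = 0.086). Sult4a1, a brain sulfotransferase, was at 41.7 to 149 CPM in astrocytes, 4.53 to 38.7 CPM in progenitors and 0 to 2.79 CPM in stem cells, with library 1 the highest of the 4. Gng3, a neuronal G protein subunit, was at 5.61 to 14.2 CPM in stem cells and 22.2 to 140 CPM elsewhere, and Sept3, a neuronal septin, at 0.748 to 28.9 CPM and 47.6 to 448 CPM. Adam22, a synaptic receptor, was at 18.7 to 36.6 CPM in stem cells and 45.6 to 120 CPM elsewhere, and Rap1gap, which switches off the Rap1 GTPase, at 3.18 to 7.76 CPM and 10.3 to 94.2 CPM. The synaptic vesicle gene Syp was at 11.2 to 33.7 CPM in stem cells, 39.8 to 88.2 CPM in progenitors and 52.1 to 556 CPM in astrocytes, the highest being library a.

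**Figure D3:**
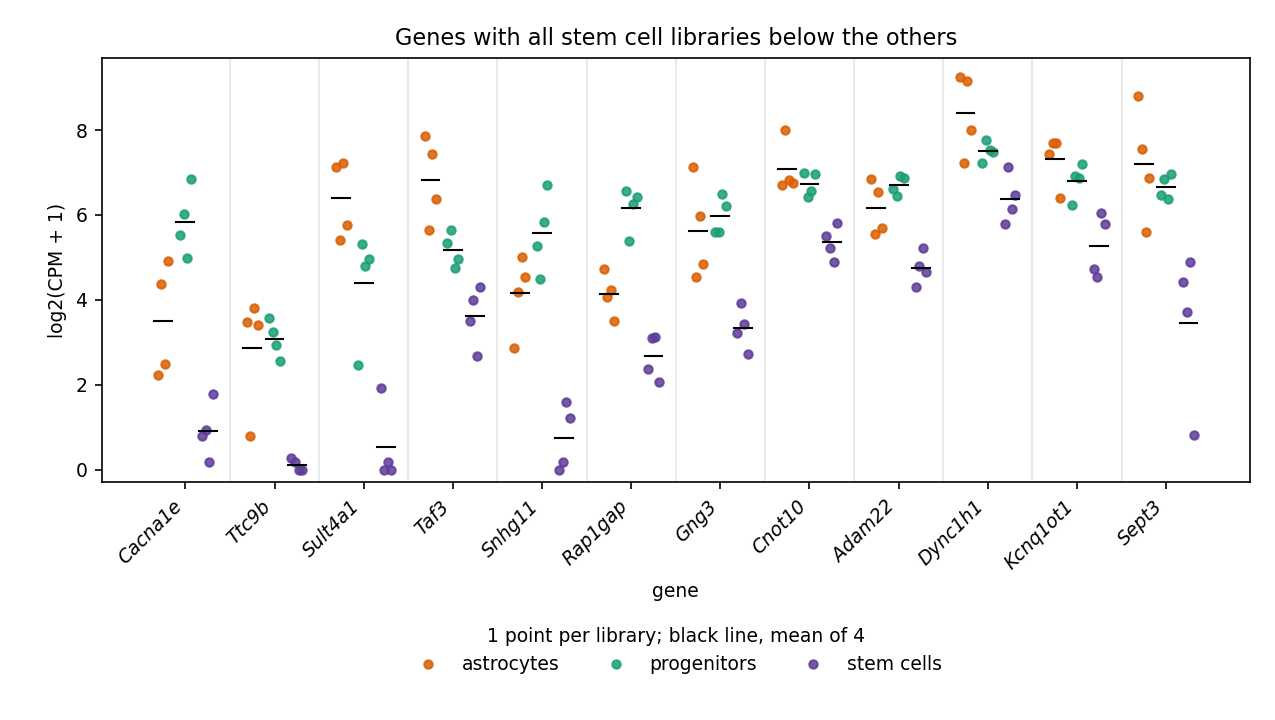
Levels of the 12 named genes with separated values below, as log2(CPM + 1) on the y axis, 1 point per library and a line at the mean of 4. The purple stem cell points lie under all orange astrocyte and green progenitor points.

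Markers of other cell types were summed over each list, genes not tested included. Of 14 tested mature neuron markers, 2 had a log2 fold change above 0, none was called against the mean, and the median was -1.20 (-2.67 against astrocytes and -0.33 against progenitors). Their summed level was 832 to 7629 CPM in astrocytes, 335 to 478 CPM in progenitors and 355 to 596 CPM in stem cells. Of 19 tested markers of neuronal progenitors and immature neurons, 2 were above 0, with a median of -2.48, and the sums were 2725 to 3757 CPM in progenitors, 970 to 1529 CPM in astrocytes and 889 to 1479 CPM in stem cells. Gap43, a growth cone protein of that list, was separated, at 0 to 22.4 CPM in stem cells and 27.4 to 122 CPM elsewhere (adjusted p = 0.33 by edgeR). Of 15 oligodendrocyte precursor markers, Cspg4 was called lower and the median was -1.43, with sums of 4408 to 7260 CPM in progenitors, 2090 to 3001 CPM in astrocytes and 2252 to 2712 CPM in stem cells. Markers of committed oligodendrocyte precursors summed to 765 to 926 CPM in stem cells, 1350 to 1654 CPM in astrocytes and 1416 to 2142 CPM in progenitors. Endothelial markers summed to 696 to 1004 CPM in stem cells, 216 to 631 CPM in astrocytes and 454 to 677 CPM in progenitors, so that stem cells were highest in every library. Only 5 of these 12 genes were tested (Tek, Itm2a, Ptprb, Slc2a1 and Bsg), with none called in either direction against the mean. Cldn5, Pecam1, Flt1, Kdr, Ly6c1, Slco1a4 and Cdh5 had too few counts to be tested. Markers of microglia (82.8 to 146 CPM in stem cells), mural cells (158 to 233 CPM), ependymal cells (57.4 to 102 CPM) and mature oligodendrocytes (594 to 1006 CPM) had stem cell sums inside the range of the astrocyte libraries. The part of such cells in the results was not tested.

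Translation genes leaned low. Of 79 tested cytosolic ribosomal protein genes, 3 had a log2 fold change above 0, the median was -0.59, and Rpl3, Rpl6 and Rps2 were among those separated below, while none was called in either direction against the mean. Rps2 had 938, 586, 371 and 180 CPM in astrocytes, 247, 281, 216 and 225 CPM in progenitors and 157, 152, 154 and 95.2 CPM in stem cells (log2 fold change -1.35, standard error 0.37, adjusted p = 0.13 by edgeR). Rpl6 was at 84 to 108 CPM in stem cells and 151 to 192 CPM in both other groups, so that these shared 1 narrow range (adjusted p = 0.18). Summed over the list, levels were 7566 to 9557 CPM in stem cells, 10727 to 14229 CPM in progenitors and 7011 to 32957 CPM in astrocytes, which overlapped with stem cells. Eef2, the elongation factor that moves the ribosome along, lay at the edge of the rule, at 249 to 351 CPM in stem cells and from 351 CPM upward elsewhere. Ribosomal protein genes have many processed copies, among which reads can be split.

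Nuclear regulators and large structural genes complete the genes below. Taf3, a subunit of the general factor TFIID, was at 5.38 to 18.7 CPM in stem cells, 26 to 49.1 CPM in progenitors and 49.1 to 232 CPM in astrocytes (adjusted p = 0.085 by edgeR). Kcnq1ot1, a nuclear RNA that silences its imprinted neighbours, was at 22.1 to 65.6 CPM in stem cells and 74.2 to 208 CPM elsewhere (adjusted p = 0.11). Cnot10, of the deadenylase complex, was at 28.8 to 55 CPM in stem cells and 85.3 to 255 CPM elsewhere, and Dync1h1, the heavy chain of the dynein motor, at 54.4 to 138 CPM and 149 to 606 CPM. Tcf4, a partner of proneural factors, had a small and even difference, with 604 to 823 CPM in stem cells and 883 to 1180 CPM elsewhere (log2 fold change -0.60, standard error 0.16, adjusted p = 0.12). Of 30 tested regulators of chromatin and DNA methylation, 3 were above 0 and the median was -0.64 (-1.13 against astrocytes), with Chd8 separated and none called against the mean. Of 31 splicing factor genes, Srrm2 was called lower, at 566 to 834 CPM in stem cells, 603 to 802 CPM in progenitors and 2012 to 3746 CPM in astrocytes. Its difference was thus from astrocytes alone, and the call held in 6 of 12 fits. Hist1h2ao and Hist1h2ap, replication-dependent histones, were low, but progenitor library b held most of their counts, and their coding sequences are near copies.

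**Figure D4:**
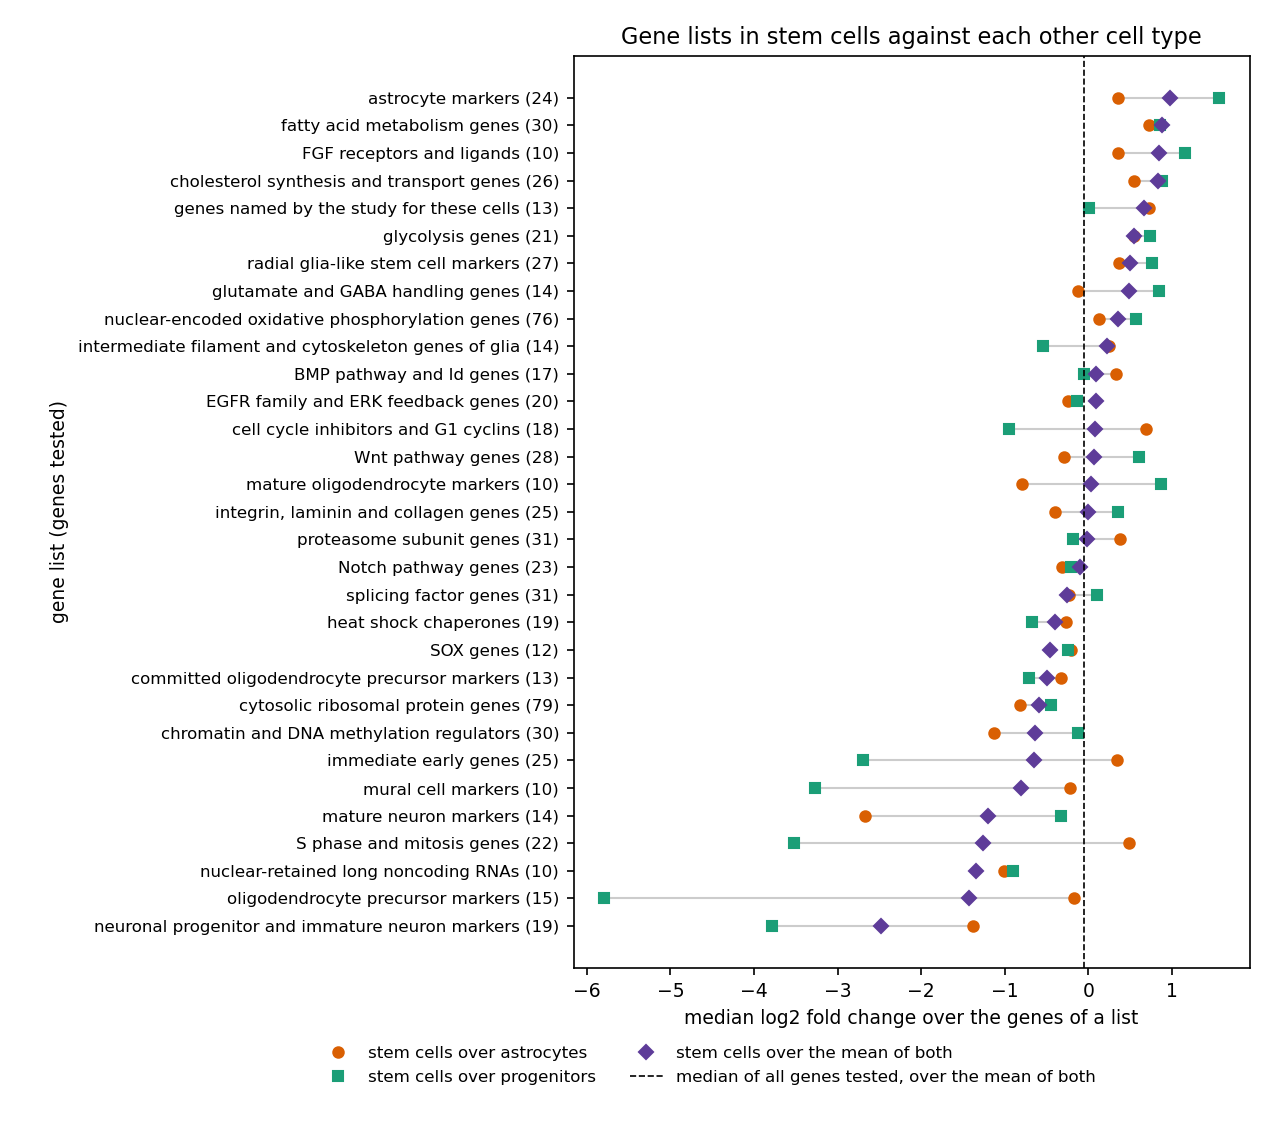
Median log2 fold change of each gene list with at least 10 tested genes, with its number of tested genes in parentheses, for stem cells over astrocytes (circles), over progenitors (squares) and over the mean of both (diamonds). The astrocyte, lipid and glycolysis lists lie right of the dashed median of all genes (-0.05), and markers of neurons and oligodendrocyte precursors lie left of it.

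Genes named here that belong to no list or group of 12 were chosen after their values were seen. The remaining lists drew few calls. Of 22 tested genes of S phase and mitosis, Stmn1 was called lower, and the median was -1.26 (-1.56 with 6 genes that had a group at the floor set to their bound), made up of -3.52 against progenitors and 0.48 against astrocytes. Of 25 immediate early genes, Egr1 was called lower, and their summed level was 3679 to 7500 CPM in progenitors, 417 to 669 CPM in stem cells and 141 to 681 CPM in astrocytes. Of 25 integrin, laminin and collagen genes with Sparcl1, a secreted matrix protein, that gene was the one called higher. The lists of heat shock, proteasome, SOX, glial cytoskeleton and cell cycle inhibitor genes had no call in either direction against the mean.

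The rule did not use gene length, type or overlap. The median exonic length was 2474 bases in the genes above, 6283 in those below and 3859 in all genes tested. Protein-coding genes made up 72.3% of the genes above, 88.2% of those below and 78.1% of all genes tested. Processed pseudogenes were 25 of the 188 genes above, 1 of the 68 below and 676 of the 16119 tested. An exonic overlap with another gene was present in 33.5%, 51.5% and 40.7%. The values that follow come from the libraries the rule used and are given as a description. Astrocytes and progenitors differed from each other, at an adjusted p under 0.05 by edgeR, in 14 of the 188 genes above and 3 of the 68 below, beside 8.59% of all genes tested (3.28% higher in astrocytes and 5.32% lower). The nearest other library was an astrocyte library in 106 of the genes above (library d in 44) and a progenitor library in 82. The gap between the nearest stem cell and other library had a median of 1.15-fold above and 1.19-fold below, and it was at least 2-fold in 4 genes each. Just inside the rule above were Pdcd10 (28.5 against 28.5 CPM after rounding), Gjb6 and Pnkd (120 against 120 CPM), and just outside were Gm2574 (92.1 against 92.1 CPM), Cyb5r1 (37.7 against 37.9 CPM) and Luzp2 (689 against 696 CPM). Below, Sptan1 (204 against 205 CPM) and Rbm17 (38.4 against 38.5 CPM) were just inside and Srek1 (205 against 204 CPM) and Dmxl2 (103 against 102 CPM) just outside.

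Promoters of the genes above were read from RefSeq, as the 250 bases before each annotated start on GRCm38.p6, and 116 of the 188 genes matched. Letters of 9 short motifs, chosen after the genes were known, were searched on both strands. The AP-1 motif TGACTCA, bound by Fos and Jun proteins, was present in 14 of 148 promoters (9.46%), in 1 of 62 promoters of genes below (1.61%) and in 405 of 13563 promoters of all genes tested (2.99%). The 14 genes were Acsl6, Adgrg1, Aldoa, Dhcr7, F3, Gja1, Gstm5, Laptm4a, Mfsd11, Mt2, Prdx1, Prn, Prnp and Prom1. Of these, 9 also held the antioxidant response motif TGACNNNGC, which can overlap with TGACTCA and was in 14.2% of promoters of genes above and 11.6% of all. The sterol motif TCACNCCAC was in 2.70% of promoters of genes above (Aldoc, Ctsc, Hmgcs1 and Pla2g12a) and 1.02% of all, the TATAAA motif in 10.8% and 6.51%. In the cholesterol list, 1 of 25 promoters, over 19 genes, held the sterol motif, that of Hmgcs1. Of the other motifs, AACAAT of SOX proteins (4.05% and 5.49%), TTGGCA of NFI proteins (10.8% and 9.95%), TGGGAA of RBPJ (20.9% and 20.2%) and CAGCTG (12.8% and 11.9%) were near the share of all promoters, and TGACGTCA was in 1.35% and 2.57%. These counts are a description of letters, with Prn and Prnp counted once each.

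Some of these promoters are shown, 3 with the AP-1 motif or its reverse complement in capitals (F3, Gja1 and Prdx1, which has 2) and 2 with the sterol motif in capitals (Hmgcs1 and Aldoc). RefSeq gives a second Aldoc promoter, at chr11:78323948-78324197, which holds no sterol motif. The Aldoc start used by RefSeq here lies inside the gene as GENCODE bounds it, which begins at base 78322968. The starts of Gja1 and Hmgcs1 lie before the GENCODE bounds, which begin at bases 56377330 and 119690379. The first bases after the Gja1 and Hmgcs1 starts were not found in GENCODE transcripts, so the positions given for them rest on RefSeq alone. All promoters shown lie on the forward strand, at chr3:121723287-121723536 (F3), chr10:56377050-56377299 (Gja1), chr4:116685349-116685598 (Prdx1), chr13:119690101-119690350 (Hmgcs1) and chr11:78322823-78323072 (Aldoc), and end at the base before the RefSeq start. Counted back from the start, the capitals begin at -135 in F3, -19 in Gja1, -237 and -131 in Prdx1, -137 in Hmgcs1 and -80 in Aldoc.
F3: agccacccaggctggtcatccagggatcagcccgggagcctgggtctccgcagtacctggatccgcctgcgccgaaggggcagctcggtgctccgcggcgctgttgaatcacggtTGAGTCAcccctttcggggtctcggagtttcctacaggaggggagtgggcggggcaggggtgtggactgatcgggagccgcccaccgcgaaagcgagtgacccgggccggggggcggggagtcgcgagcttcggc
Gja1: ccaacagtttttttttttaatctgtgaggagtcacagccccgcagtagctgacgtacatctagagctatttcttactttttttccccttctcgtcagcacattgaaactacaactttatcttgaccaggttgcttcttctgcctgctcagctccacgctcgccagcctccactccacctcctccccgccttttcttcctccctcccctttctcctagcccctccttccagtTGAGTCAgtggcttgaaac
Prdx1: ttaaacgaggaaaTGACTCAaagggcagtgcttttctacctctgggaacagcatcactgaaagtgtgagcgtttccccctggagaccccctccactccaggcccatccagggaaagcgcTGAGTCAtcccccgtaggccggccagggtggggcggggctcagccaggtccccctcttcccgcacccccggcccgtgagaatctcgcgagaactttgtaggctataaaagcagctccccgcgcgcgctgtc
Hmgcs1: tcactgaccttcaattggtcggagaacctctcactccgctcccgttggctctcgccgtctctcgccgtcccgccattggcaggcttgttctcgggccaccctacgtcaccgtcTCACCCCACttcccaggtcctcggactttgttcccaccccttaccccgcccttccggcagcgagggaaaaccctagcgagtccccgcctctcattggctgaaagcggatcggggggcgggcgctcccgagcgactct
Aldoc: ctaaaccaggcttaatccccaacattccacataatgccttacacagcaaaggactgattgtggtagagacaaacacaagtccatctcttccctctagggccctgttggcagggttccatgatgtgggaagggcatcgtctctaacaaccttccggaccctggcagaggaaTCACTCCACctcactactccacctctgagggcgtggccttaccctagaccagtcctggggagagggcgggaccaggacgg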

How the data were processed

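Libraries of sorted cells were made by full-length amplification (SMARTer v4) and Nextera XT and sequenced on an Illumina instrument. The authors deposited 1 table of raw read counts per gene: per their methods, reads were trimmed, ribosomal, mitochondrial and PhiX reads removed, the rest aligned to GRCm38 with HISAT2 2.0.6 and counted without strand over GENCODE genes with featureCounts. The submitters' processing notes also name CASAVA 1.8.2. All 12 columns were used, with 0 left unused. Stem cell columns carry replicate numbers, astrocyte and progenitor columns do not and are called a to d. Each is 1 library. Per the paper the 4 libraries of a group are biological replicates and a single mouse brain can serve for each, while which libraries of different groups share a mouse is not given in the sources used here. Genes were kept if 4 or more libraries held 10 counts or more (3 in fits without a library).

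One edgeR 4.0.16 quasi-likelihood fit in R 4.3.3 with 3 groups and TMM factors gave each contrast, with Benjamini-Hochberg adjustment over all 16119 genes, the common biological coefficient of variation being 1.09. The stem cell contrast was taken against the mean of both others, each weighted equally. The astrocyte against progenitor contrast, and list sums without separated genes or Slc1a3, were added after the data were seen. The floor was 3 counts per library, 0.207 to 0.651 CPM. Alternatives were DESeq2 1.42.0, which the study's methods use, its size factors, other filters, thinning, robust estimation, 2 groups in place of 3 and each library left out. On simulated data with the real spread, 27 of 188 genes changed 4-fold and 74 of 191 changed 16-fold were recovered, so many differences of this size would be missed. Members and lists were chosen with earlier results of these data known, and counts on lists are therefore descriptions. The 12 genes named per direction had the widest change among called genes with separated values, or the smallest unadjusted p where fewer were called, with at least 10 counts in all stem cell libraries (above) or in at least 7 of the 8 others (below), gene models without a name left out. Genes of the study's own list, of the sort and list members that were called or separated were also eligible. Results on some genes are not reported here.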

Additional observations from a re-analysis of the deposited data

Results flagged for a closer look

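In 11 of the 116 groups of 4 libraries looked at, for levels of named genes and for library totals, 1 library stood apart, its gap to the next, as a share of the group's range, being over Dixon's critical value for 4 libraries. For normally distributed values, chance gives about 1 in 20 groups. Levels from few counts are not so distributed, so nothing is read from the number of groups. Prdx6 had such a library in astrocytes (a at 1054 CPM, the others at 1820 to 1895 CPM) and in progenitors (a at 1457 CPM, the others at 906 to 994 CPM). Cnot10 was at 255 CPM in astrocyte library b and at 104 to 112 CPM in the others. In stem cells, library 1 stood apart in Sult4a1 (2.79 CPM, others 0 to 0.125 CPM) and in Dcx (8.89 CPM, others 0.125 to 0.561 CPM), and library 2 in Eomes (5.26 CPM, others 0 to 0.125 CPM). Neurod1 was at 120 CPM in astrocyte library a and at most 1.23 CPM in the others. Mcm2 was at 181 CPM in progenitor library b (others 15.1 to 29.7 CPM) and at 1.85 CPM in astrocyte library b (others 0 to 0.219 CPM). At levels near 1 count, Dcx in astrocyte library d (0.616 CPM, others 0.185 to 0.219 CPM) and Rps19bp1 in astrocyte library c (0.201 CPM, others 0) also stood apart.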

How the results depend on the processing

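Against the mean of both, DESeq2 called 398 genes higher and 517 lower (43.5% higher, against 80% with edgeR), all 75 edgeR calls among them, and left 794 adjusted p-values undefined. With 2 groups in place of 3, 0 were higher and 0 lower (1308 at an unadjusted p under 0.05). The median change of a gene's log2 fold change from the main fit was then -0.11. No filter on low counts gave 26 lower. Against astrocytes, DESeq2 called 959 higher and 859 lower, no filter 113 and 85, and 10 counts in every library 112 higher. Against progenitors, DESeq2 called 283 higher and 579 lower, no filter 82 and 151, and 10 counts in every library 46 lower. That last filter left 38 genes separated below, and CPM from plain totals gave 160 above and 69 below, 121 and 55 of them the same genes. The causes were not tested.

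Without 1 library, calls against the mean ranged from 6 to 195 higher and 3 to 39 lower, against astrocytes 55 to 524 and 23 to 260, against progenitors 45 to 222 and 44 to 349, and separated genes numbered 208 to 322 above and 75 to 126 below. A separated set can only grow, or lose genes to the filter and scaling, when a library is left out, and 187 to 188 of the genes above and 64 to 68 of those below were kept. Some uncalled markers changed direction. With 2 groups in place of 3, Eomes went from 1.35 to -2.80 and Mcm2 from 1.70 to -0.71 on the log2 scale. Eomes had 0 counts in every astrocyte library, 0, 40, 1 and 0 in stem cell libraries 1 to 4 and 89 to 376 in progenitors. Its log2 fold change against progenitors alone was -3.79 in the main fit (adjusted p = 0.55 by edgeR). Without 1 library, Eomes ranged from -3.19 (stem cell library 2 out) to 1.78, Pcna from -0.88 to 0.02 (progenitor library b out) and Sox2 from -0.13 (stem cell library 1 out) to 0.37, with -0.02 without stem cell library 4. No paired analysis was possible because the astrocyte and progenitor columns carry no replicate numbers. Depth limits genes under the floor, and 50 cells per library limit the precision.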
